A study of Mus musculus with 6 samples.

Results

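Small nucleolar RNA (snoRNA) host genes were followed in mouse embryonic fibroblasts exposed to low oxygen. The 10 genes considered were Gas5, Snhg1, Snhg3, Snhg4, Snhg5, Snhg6, Snhg8, Snhg12, Snhg15 and Snhg17, each looked for as a row of the deposited gene table that carries its symbol. Of these, 8 had a row of their own name, and all 8 were tested, among 14575 tested of 51482 measurements in the table. RNA had been sequenced from wild-type (WT) mouse embryonic fibroblasts immortalised with SV40, kept for 16 h at 21% oxygen (normoxia) or at 0.5% oxygen (hypoxia), with 3 samples per condition. All 6 samples carried the same genotype and immortalisation, and no other agent is named in the labels. The line is an immortalised one, so it is not a primary culture.

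The values are FPKM, fragments scaled to transcript length and library size, which allows levels of different genes to be compared per length. The authors combined the 3 samples of a condition into 1 FPKM per gene, so no value carries an SD, there is no check over replicates, and the depth of the libraries is unknown. The words rose and fell are kept for genes to which the authors' deposited table gives a q (their p adjusted over all tested genes) below 0.05. Log2 ratios are of FPKM + 1 in hypoxia over normoxia, a scale that understates the change of low genes.

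A snoRNA host gene is transcribed by RNA polymerase II and spliced. Most vertebrate snoRNAs lie in its introns and are trimmed out of the excised intron, so that 1 primary transcript gives both a spliced, polyadenylated RNA and 1 or more snoRNAs without a poly-A tail. Snora and Snord genes name the main classes: box C/D snoRNAs guide 2′-O-methylation and box H/ACA snoRNAs guide pseudouridylation, mostly of ribosomal RNA. Many hosts encode ribosomal proteins or translation factors, whereas the Snhg genes and Gas5 make spliced RNAs with no long reading frame. Transcripts of several such hosts begin with a run of pyrimidines (a 5′ terminal oligopyrimidine, or TOP, start) and are known to be degraded by nonsense-mediated decay when they are translated. Libraries here were made from poly-A selected RNA, so the FPKM values say little about the snoRNAs cut out of the hosts. Only the measurements of Snhg6 and Snhg8 carry the host's name alone. Those of Gas5, Snhg1, Snhg5, Snhg12, Snhg15 and Snhg17 are shared with snoRNAs inside them. In these, the part of the host RNA cannot be told apart from that of the snoRNAs.

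The snoRNAs inside the measured hosts differ in class between members, and a few are shown with their class. The choice to look at class was made after the values were seen. Classes were read from the sequence. A C/D snoRNA was one with TGATGA (box C) in its first 25 bases and CTGA (box D) in its last 20 bases. An H/ACA snoRNA was one of at least 110 bases with ACA in its last 10 bases. Sequences are from GENCODE M21 on GRCm38, 5′ to 3′ on the strand of the host, with these boxes in capitals.
Snord50a of Snhg5 (chr9:88521529-88521600, minus strand): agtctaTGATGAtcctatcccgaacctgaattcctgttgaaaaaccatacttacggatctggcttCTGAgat
Snord50b of Snhg5 (chr9:88521797-88521868, minus strand): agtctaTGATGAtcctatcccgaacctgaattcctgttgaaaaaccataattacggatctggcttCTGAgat
Snord87 of Snhg6 (chr1:9942463-9942549, minus strand): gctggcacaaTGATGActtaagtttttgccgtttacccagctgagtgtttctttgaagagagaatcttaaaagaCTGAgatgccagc
Snord47 of Gas5 (chr1:161038082-161038158, plus strand): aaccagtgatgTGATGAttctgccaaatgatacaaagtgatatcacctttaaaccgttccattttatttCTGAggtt
Snord99 of Snhg12 (chr4:132310691-132310764, plus strand): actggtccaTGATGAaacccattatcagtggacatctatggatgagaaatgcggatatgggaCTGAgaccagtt
Snora24 of Snhg8 (chr3:123507937-123508066, minus strand): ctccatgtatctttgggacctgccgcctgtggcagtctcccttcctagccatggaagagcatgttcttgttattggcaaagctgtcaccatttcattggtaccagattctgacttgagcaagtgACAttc
Snora9 of Snhg15 (chr11:6528033-6528165, minus strand): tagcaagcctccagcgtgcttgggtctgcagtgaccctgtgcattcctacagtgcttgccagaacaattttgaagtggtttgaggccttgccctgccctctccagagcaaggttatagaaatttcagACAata
The Snord50a and Snord50b sequences, both 72 bases long, differ at 1 base. The box rule placed 67 of 98 annotated genes named Snord in the C/D class and none in the other. It placed 40 of 42 named Snora in the H/ACA class, so it misses part of the C/D snoRNAs. Of 1367 annotated snoRNA genes with other names, it placed 241 in C/D and 599 in H/ACA, and left 527 without a class. For these the name gives no check of the rule.

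Gas5 holds 9 snoRNA loci, 7 of which had both C/D boxes and 2 of which were not classed. Snhg1 holds 8, with 6 of class C/D and 2 not classed, the latter including Snord22. Snhg5 holds 2 and Snhg6 holds 1, all C/D. Snhg12 is mixed, having 1 C/D and 2 H/ACA snoRNAs and 1 not classed. Snhg8 and Snhg15 each hold 1 H/ACA snoRNA, and Snhg17 holds 3. Every one of them lies in an intron of at least 1 annotated transcript. Most also overlap an exon of another transcript: 16 of 17 C/D, 7 of 7 H/ACA and 5 of 5 not classed. Distances to the next exon are the shortest over the transcripts in which the snoRNA is intronic. The C/D snoRNAs of the measured members ended a median of 73 bases before the next exon, and 14 of 17 ended 60 to 90 bases before it. The 7 H/ACA snoRNAs had a median of 237 bases, and Snora9 in Snhg15 ended 1595 bases before the next exon.

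**Figure D1:**
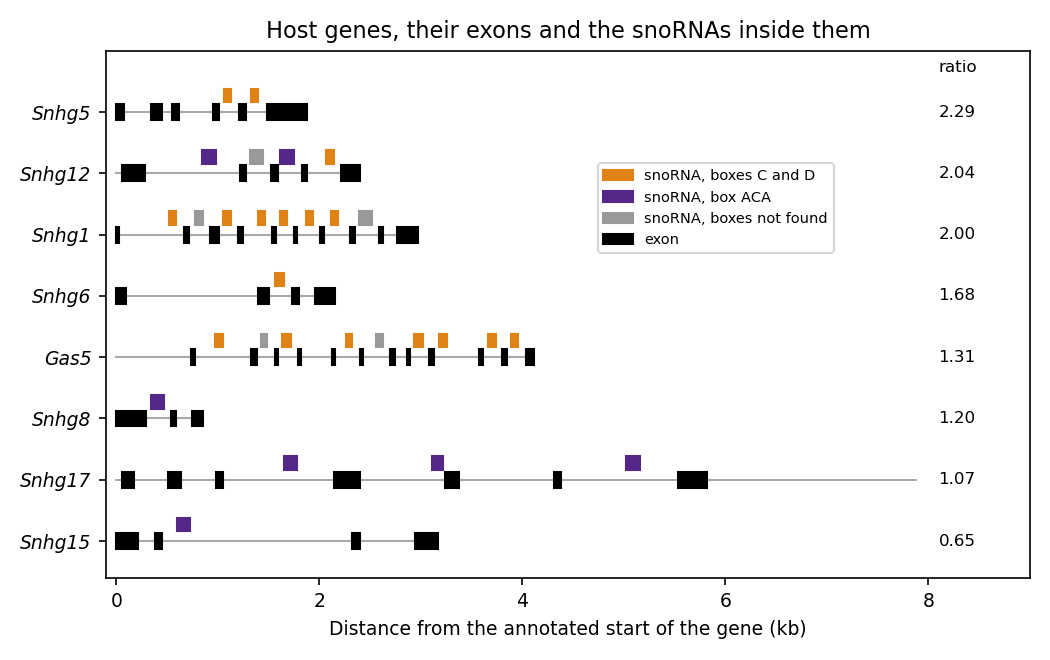
Maps of the 8 measured hosts, to scale, from the annotated start of each gene (x axis, kb), with the exons of the transcript that has the most exons as black boxes, snoRNAs above them coloured by class, and the hypoxia over normoxia ratio of FPKM at the right. Genes are ordered by that ratio, from Snhg5 at 2.29 to Snhg15 at 0.65, and the lowest 3 hold only snoRNAs of the ACA class.

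The measurements that carry the hosts were mostly higher in hypoxia. Gas5, Snhg1, Snhg5, Snhg6, Snhg8 and Snhg12 rose, Snhg15 fell, and Snhg17 was not called. In all tested measurements of the authors' deposited table, 57.9% were called, 28.9% as higher and 29.0% as lower, so that a call by itself was common in this comparison. Among the 6949 tested measurements whose mean FPKM lay in the range of the members, 64.2% were called, 35.4% as higher and 28.8% as lower. Among all tested long noncoding RNAs 32.7% were called, 12.3% as higher and 20.4% as lower. Among the 44 of these in the members' range, which include the members, 68.2% were called, 45.5% as higher and 22.7% as lower. A rise of at least 2-fold was reached by 3 members, Snhg1, Snhg5 and Snhg12, and by 9.03% of all tested measurements, and a fall of at least 2-fold by no member and by 9.87%. At a q below 0.01, 5 members rose and 1 fell, against 24.5% and 24.2% of all tested measurements. Together the 8 hosts summed to 549.8 FPKM under normoxia and to 848 FPKM under hypoxia (ratio 1.54). Their median log2 ratio was 0.56, against -0.0094 over all tested measurements, 0.053 over those in the members' range and 0.29 over long noncoding RNAs in that range. These are levels per unit of RNA from bulk cultures, in which fewer cells that express a gene and less of its RNA per cell cannot be told apart.

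**Figure D2:**
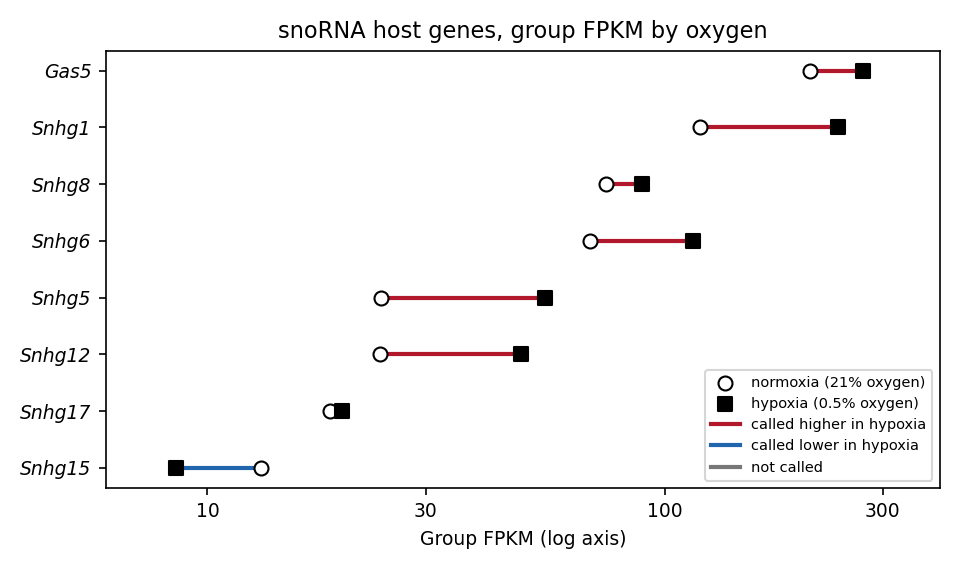
Group FPKM (log axis) of the 8 measured hosts in normoxia (open circles) and hypoxia (filled squares), with the joining line coloured by the authors' call. Snhg5, Snhg12 and Snhg1 move by about the same length to the right, from 23.9 to 54.8, from 23.8 to 48.5 and from 119 to 239 FPKM, and Snhg15 moves to the left.

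Gas5, named for its rise in growth-arrested cells and known as an RNA that can bind the glucocorticoid receptor, was the most abundant member in both conditions. It rose from 208 to 272 FPKM (1.31-fold, q = 0.00211 in the authors' deposited table). The gene lies at chromosome 1, 161034422 to 161038539, on the plus strand of GRCm38, with 25 annotated transcripts of up to 12 exons. Its measurement is shared by 11 identifiers under 10 names, Gas5 and the snoRNAs inside it, and the table gives them all the same value. The 5′ end of Gas5 overlaps the divergent gene Zbtb37, a zinc finger gene on the opposite strand, which was not called at 1.69 and 2.47 FPKM (authors' deposited table, q = 0.105).

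Snhg1, the next most abundant, went from 119 to 239 FPKM (2.00-fold, q = 0.000139 in the authors' deposited table, the smallest q it holds). This smallest q was shared by 5148 of the 14575 tested measurements, so it does not rank the genes that have it. Snhg1 spans chromosome 19, 8723475 to 8726443, plus strand, with up to 10 exons, and its measurement carries 9 names, its own and those of its 8 snoRNAs. Slc3a2, which encodes the heavy chain of cell surface amino acid transporters, starts 106 bases away on the opposite strand. It rose as well, from 230 to 331 FPKM (1.44-fold), a smaller ratio than that of Snhg1, although the difference between the ratios was not tested.

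Snhg5, host of both Snord50 copies, had the largest ratio of the members. It rose from 23.9 to 54.8 FPKM (2.29-fold, q = 0.000139 in the authors' deposited table) and spans chromosome 9, 88521050 to 88522929, on the minus strand. Snhg12, whose introns hold Snord99 and H/ACA snoRNAs, stood at almost the same normoxic level and rose from 23.8 to 48.5 FPKM (2.04-fold, q = 0.000139 in the authors' deposited table). It spans chromosome 4, 132308623 to 132311024, plus strand. Snora16a, inside Snhg12, has its own row, at 2.85 FPKM under normoxia and listed at 0 under hypoxia, with no call in the authors' deposited table (q = 0.139).

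Snhg6 and Snhg8 are the members whose rows carry only the host's name. Snhg6 rose from 68.8 to 115 FPKM (1.68-fold, q = 0.000139 in the authors' deposited table) and spans chromosome 1, 9941959 to 9944118, minus strand. Its snoRNA, Snord87, is listed at 0 in both conditions in a row of its own, as is Mcmdc2, the gene that overlaps the 3′ end of Snhg6 on the opposite strand. Snhg8 rose least of the called members, from 74.6 to 89.4 FPKM (1.20-fold, q = 0.0245 in the authors' deposited table), and spans chromosome 3, 123507552 to 123508404, minus strand. The increase in Snhg8 was the 1 call among the members that would be lost at a q of 0.01.

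Snhg15 and Snhg17, the least abundant members, were the ones that did not rise. Snhg15, host of Snora9, fell from 13.1 to 8.53 FPKM (1.53-fold lower, q = 0.000139 in the authors' deposited table) and spans chromosome 11, 6525591 to 6528760, minus strand. Snhg17, with 3 H/ACA snoRNAs, had 18.5 FPKM at 21% oxygen and 19.7 FPKM at 0.5% oxygen, with no call in the authors' deposited table (q = 0.749). It spans chromosome 2, 158353700 to 158361580, minus strand. No other annotated gene shares a stretch of at least 150 bases at 95% identity with a transcript of any of the 8 hosts. At 90% identity, transcripts of Snhg17 matched 83 other genes, those of Snhg1 matched 3 and those of Snhg15 matched 2.

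Snhg3 and Snhg4 had no row under their own symbol. The identifier of Snhg3 (chromosome 4, 132348014 to 132353686) is listed in the measurement of Rcc1, the gene of a chromatin-bound nucleotide exchange factor for Ran that starts next to it on the same strand. The authors' deposited table gives that measurement 114 and 103 FPKM, with no call (q = 0.411). For Snhg4, the identifier of Snora74a, a snoRNA inside its RefSeq span, is listed in the measurement of Matr3 and Gm28285. That measurement was at 139 and 155 FPKM (q = 0.275 in the authors' deposited table, not called). In neither case can the share of the noncoding host be told apart from that of its neighbour, and both were left out of the counts. Snora73b, inside Snhg3, has its own row at 11.3 and 12.7 FPKM and was not called.

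The order of the members by level hardly differed between conditions. From the highest down, the normoxic order was Gas5, Snhg1, Snhg8, Snhg6, Snhg5, Snhg12, Snhg17 and Snhg15, and in hypoxia only Snhg6 and Snhg8 changed places. With 1 value per condition, whether neighbours in this order differ beyond the spread of samples could not be tested. Snhg5 and Snhg12, at 23.9 and 23.8 FPKM in normoxia, were the closest pair. Among 856 tested long noncoding RNAs ranked by mean FPKM, Gas5 was at rank 4, Snhg1 at 6, Snhg6 at 9 and Snhg8 at 10. Snhg5, Snhg12, Snhg17 and Snhg15 followed at ranks 17, 19, 31 and 47.

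**Figure D3:**
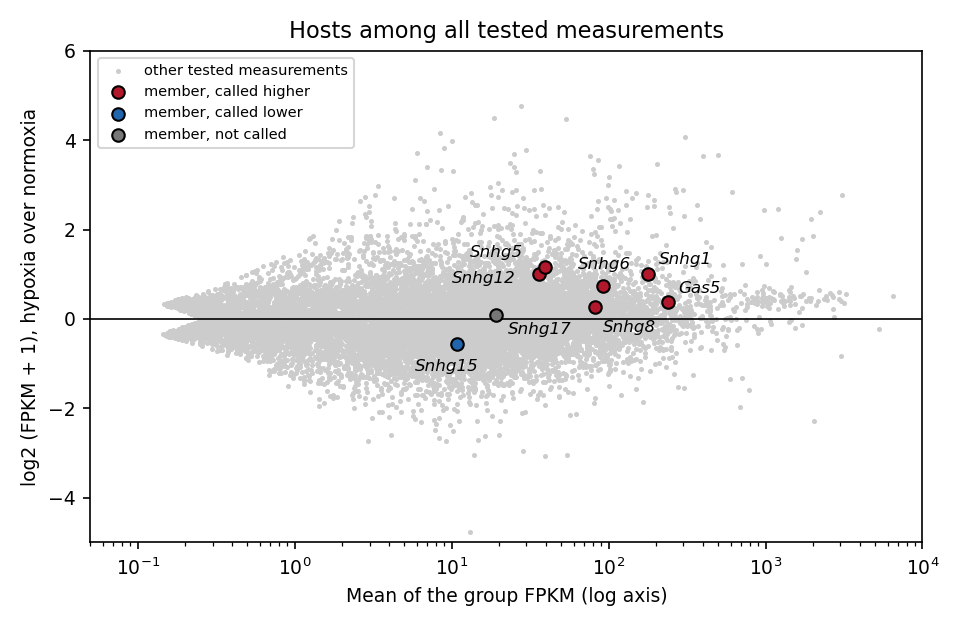
Log2 ratio of FPKM + 1 in hypoxia over normoxia (y axis) against the mean of both group FPKM values (x axis, log) for all tested measurements in grey and the 8 hosts coloured by call. The 6 hosts that rose lie between 0.26 and 1.16 on the y axis, Snhg15 lies at -0.56 and Snhg17 at 0.09, all well inside the cloud.

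Summed FPKM over all genes was larger in hypoxia, so the members were also set on an equal sum, with hypoxia divided by 1.17. Snhg5, Snhg12, Snhg1 and Snhg6 then had ratios of 1.96, 1.74, 1.71 and 1.43. Gas5 and Snhg8 came closer to equality, at 1.12 and 1.03, and Snhg15 went to 0.558. None of the 7 called members changed direction, whereas Snhg17 had a ratio of 0.913.

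The noncoding hosts with a snoRNA annotated inside them were next grouped by its class, a grouping chosen after the values were seen and given without a test. The 4 members with only C/D snoRNAs among those classed (Gas5, Snhg1, Snhg5 and Snhg6) all rose, by 1.31-fold to 2.29-fold, with a median log2 ratio of 0.87. Of the 3 members with only H/ACA snoRNAs, Snhg8 rose, Snhg15 fell and Snhg17 was not called (median 0.09). Snhg12, with both classes, rose. Outside the members, 6 noncoding hosts of C/D snoRNAs had a mean of at least 1 FPKM, of which 5 rose and 1 had no call (median 0.78). Among them were 2410006H16Rik, host of Snord49a, Snord49b and Snord65, from 263 to 609.5 FPKM, and 1110038B12Rik, host of Snord52, from 133 to 229 FPKM. Below that filter, the C/D host 9330159M07Rik went from 0.329 to 0.101 FPKM and was not called. Of the 3 other noncoding hosts of H/ACA snoRNAs with a mean of at least 1 FPKM, Epb41l4aos rose, Dancr fell and Snhg9 was not called (median 0.00098). The box rule left 3 noncoding hosts without a class. Of these, 1810032O08Rik, with Snord1a, Snord1b and Snord1c, rose, 2700038G22Rik, with Snord93, fell, and AI506816, whose snoRNA has no Snord or Snora name, fell. A class read from names would thus add 1 host that rose and 1 that fell to the C/D group. All these values come from the same comparison and the same libraries as those of the members.

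**Figure D4:**
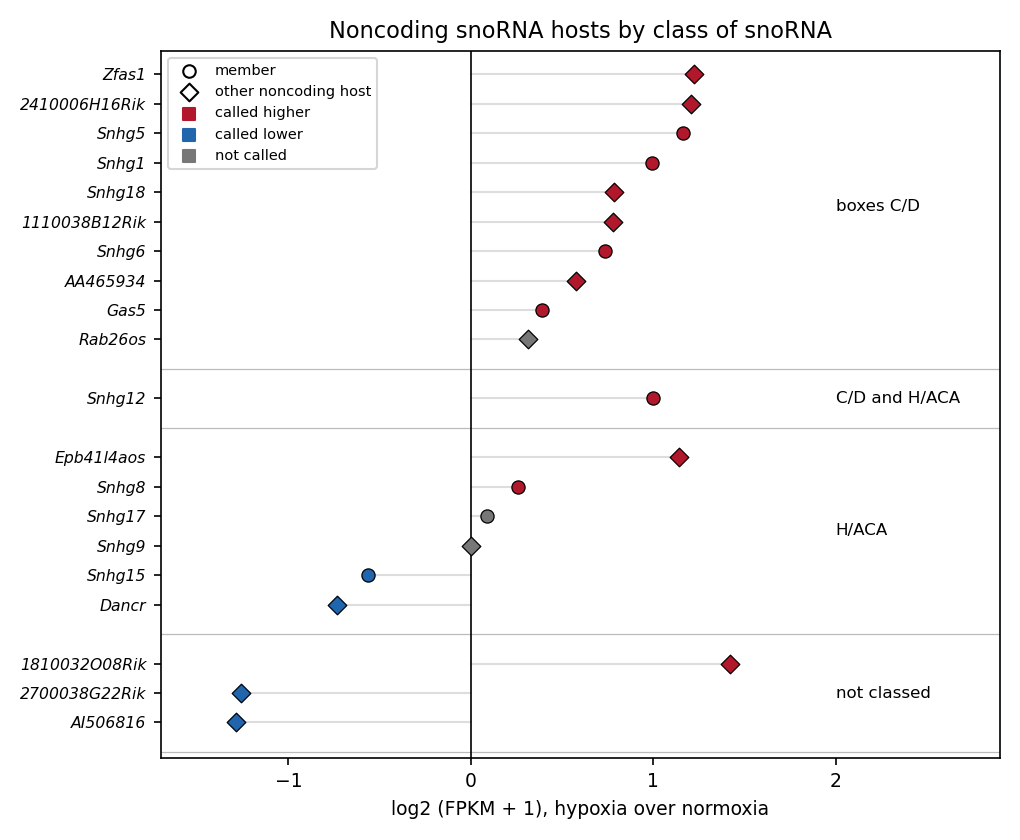
Hypoxia over normoxia log2 ratio of FPKM + 1 for every tested noncoding gene with an annotated snoRNA inside it and a mean of at least 1 FPKM, grouped by the class of its snoRNAs, with members as circles, other hosts as diamonds and colours for the authors' call. The hosts that the box rule classed as C/D all lie to the right of 0, from Rab26os at 0.31 to Zfas1 at 1.23. The H/ACA hosts lie on both sides, from Dancr at -0.73 to Epb41l4aos at 1.14. The Snord93 host 2700038G22Rik, at -1.26, is among those not classed.

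A list of 12 further noncoding hosts was examined, of which 8 were tested: 4 rose and 1 fell, 3 having no call (median log2 ratio 0.24). Zfas1, an antisense transcript of Znfx1 that hosts Snord12 snoRNAs, rose from 60.9 to 144 FPKM (2.36-fold). Epb41l4aos rose from 23.8 to 53.8 FPKM, Snhg20 from 13.1 to 18.6 FPKM and Snhg18 from 0.635 to 1.82 FPKM. Dancr, known as a noncoding RNA that holds back differentiation, fell from 6.93 to 3.77 FPKM (1.84-fold lower). Snhg9 was at 17.0 and 17.1 FPKM, Snhg10 at 3.55 and 2.64 FPKM and Snhg7 at 6.38 and 4.16 FPKM, none of them called. The annotation places a small Cajal body RNA, not a snoRNA, inside Snhg20 and Snhg10, and the Snhg7 row covers only the locus of Snora43, so these 3 are not in the grouping by class. The Snhg7 row, which does not measure the whole host, was still counted among the 8 tested and in the median. Snhg11, Snhg14 and Rian were not tested, at or near 0 in both conditions.

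The start sites of the hosts were set beside the TOP genes, since a pyrimidine start is what this group of transcripts is known for. RefSeq start windows on GRCm38.p6 were found for 7 of the 8 measured hosts, not for Snhg6. Each is shown from 30 bases before the start to 30 from the start on, with the longest run of pyrimidines near the start in capitals.
Gas5 (chr1:161035136-161035195, plus strand): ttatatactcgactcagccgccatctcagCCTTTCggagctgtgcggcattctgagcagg
Snhg1 (chr19:8723457-8723516, plus strand): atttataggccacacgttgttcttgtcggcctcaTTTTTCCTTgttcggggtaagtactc
Snhg5 (chr9:88522868-88522927, minus strand): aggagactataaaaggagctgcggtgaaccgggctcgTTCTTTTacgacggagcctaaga
Snhg8 (chr3:123508307-123508366, minus strand): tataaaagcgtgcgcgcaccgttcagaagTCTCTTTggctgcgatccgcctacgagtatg
Snhg12 (chr4:132308648-132308707, plus strand): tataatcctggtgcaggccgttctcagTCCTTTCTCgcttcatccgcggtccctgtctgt
Snhg15 (chr11:6528731-6528790, minus strand): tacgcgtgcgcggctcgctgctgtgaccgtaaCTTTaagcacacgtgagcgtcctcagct
Snhg17 (chr2:158361480-158361539, minus strand): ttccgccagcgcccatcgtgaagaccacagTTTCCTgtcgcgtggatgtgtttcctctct
Gas5 and Snhg17 each have another annotated start, which was counted as well. A gene was counted for a feature if any of its windows held it.

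In Gas5 and Snhg8 the annotated start was a C followed by at least 4 pyrimidines, against 3.01% of 27025 genes with a window and 28.6% of the TOP genes with one. A run of at least 7 pyrimidines lay at least in part within 10 bases of the start in Snhg1, Snhg5, Snhg8 and Snhg12. The same held for 22.5% of all genes and 54.3% of the TOP genes with a window. The letters TATA stood 45 to 15 bases before the start, on the strand of the gene, in Gas5, Snhg1, Snhg5, Snhg8 and Snhg12. They also stood there in 7.93% of all genes and 8.57% of the TOP genes with a window. Among the protein-coding hosts with a window, on a list described below, the shares were 3.45% for the C start, 34.5% for the run and 6.90% for TATA. Snhg15 and Snhg17 had neither the TATA letters nor a run of that length. A match describes letters in a window and not a working site, and 7 genes allow no test.

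Letters of the hypoxia response element core were also counted, on both strands of the whole 300-base windows, which reach from 250 bases before the start to 50 after it. ACGTG stood in the windows of Snhg1, Snhg5 and Snhg15, and in 21.8% of all genes, 34.3% of the TOP genes and 44.8% of the protein-coding hosts on the lists described next. GCGTG stood in those of Gas5, Snhg1, Snhg5, Snhg8, Snhg15 and Snhg17, and in 35.2% of all genes, 48.6% of those TOP genes and 65.5% of those protein-coding hosts. CACGTG, an E-box that contains ACGTG, stood in the window of Snhg15 alone among the members, and in 8.09% of all genes, 11.4% of those TOP genes and 24.1% of those protein-coding hosts. The motif letters occurred in the host that fell as well as in hosts that rose, and whether they have a part in either change was not tested.

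Protein-coding snoRNA hosts were divided between genes of the ribosome and the rest. Of 39 tested genes on this list, 24 rose and 7 fell, 8 having no call (median log2 ratio 0.37). Of its 18 ribosomal protein genes 17 rose and 1 was not called (median 0.42), while its 21 other genes were divided into 7 higher, 7 lower and 7 not called (median -0.17). Taf1d, which encodes a subunit of the RNA polymerase I selectivity factor, rose from 42.0 to 79.7 FPKM (1.90-fold). Dkc1 fell from 33.1 to 9.29 FPKM, Nop56 from 138 to 68.0 FPKM and Nop58 from 163 to 83.2 FPKM, and these hosts themselves encode snoRNP proteins. On a list of 48 TOP genes that are not hosts, 44 rose, none fell and 4 had no call by the authors' Cuffdiff q (median 0.45). Naca, Rpl18 and Rpl38 among those 44 had ratios below 1 when both groups were set to an equal sum. Its leading members were Fau, from 1173 to 2449 FPKM, Eif4b, from 232 to 417 FPKM, Rps27, from 1700.1 to 2678 FPKM, and Rps19, from 1103 to 1736 FPKM. The members' median of 0.56 lay above these medians, with quartiles of 0.22 and 0.99, and the difference was not tested.

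Most genes for core proteins of the snoRNA particles, or for H/ACA assembly, had lower transcript levels in hypoxia, unlike most of the hosts. All 4 measured core proteins of box C/D snoRNPs fell, with a median log2 ratio of -0.76. Fbl, the gene of the methyltransferase fibrillarin, went from 108 to 73.7 FPKM, and Snu13, whose product binds the kink-turn of the snoRNA, from 142 to 96.3 FPKM, beside the scaffold genes Nop56 and Nop58. Of 6 genes for box H/ACA core or assembly proteins 5 fell and 1 rose, with a median of -0.92. Dkc1, the gene of the pseudouridine synthase dyskerin, fell 3.56-fold, Nhp2 fell from 49.0 to 17.4 FPKM, Gar1 from 59.2 to 24.5 FPKM, Shq1 from 7.18 to 4.38 FPKM and Nop10 from 46.0 to 38.6 FPKM. Naf1, an assembly factor later replaced by Gar1, rose from 12.6 to 17.4 FPKM.

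Assembly and release factors moved in both directions. Of 10 snoRNP assembly genes 2 rose and 4 fell, 4 having no call, and the median of 0.08 became -0.13 on an equal sum. Znhit6 fell from 12.4 to 4.30 FPKM, Nolc1 from 59.2 to 23.6 FPKM, Ruvbl1 from 55.9 to 32.6 FPKM and Rpap3 from 26.9 to 15.8 FPKM, while Ruvbl2, whose product forms a ring-shaped ATPase with that of Ruvbl1, rose from 82.3 to 137 FPKM. Nufip1 rose from 7.27 to 13.5 FPKM. Coil, Znhit3, Phax and Pih1d1 had ratios from 1.01 (Coil) to 1.22 (Pih1d1) and were not called. Of 15 tested genes for release and trimming of snoRNAs from introns 3 rose and 6 fell, 6 having no call (median -0.17). Exosc1, a cap subunit of the RNA exosome, fell most, from 18.6 to 5.03 FPKM (3.69-fold lower), Exosc5 fell from 25.8 to 14.7 FPKM and Exosc4 from 27.3 to 16.6 FPKM, while Exosc8 rose from 62.9 to 105 FPKM. Dbr1, the debranching enzyme that opens the excised intron, was named after its value was seen and fell from 15.2 to 9.72 FPKM.

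Of 9 nonsense-mediated decay genes 2 rose and 1 fell, 6 having no call, and the median of 0.07 became -0.14 on an equal sum. Smg6, which encodes the endonuclease of the pathway, rose from 11.0 to 24.1 FPKM, and Upf2 rose from 16.3 to 34.4 FPKM. Upf1, the gene of the central helicase, fell from 28.4 to 19.3 FPKM. The other 6, Smg1, Smg5, Smg8, Smg9, Upf3a and Upf3b, had ratios between 0.948 (Smg5) and 1.33 (Smg1).

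**Figure D5:**
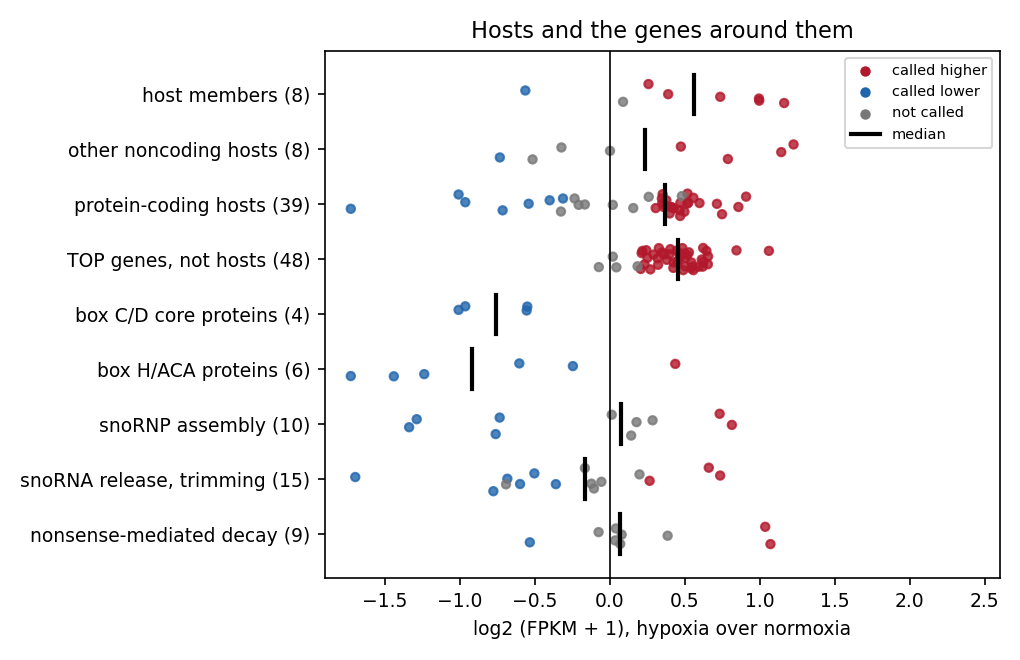
Hypoxia over normoxia log2 ratio of FPKM + 1 for every tested gene (points, coloured by the authors' call) of the hosts and 8 further lists, with the number tested in brackets and the median as a black bar. The medians of the hosts, the TOP genes and the protein-coding hosts lie at 0.56, 0.45 and 0.37, and those of the C/D and H/ACA protein lists at -0.76 and -0.92.

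Genes known to respond to low oxygen separated the conditions in the direction their labels give. All 8 of these genes rose: Egln3 2.72-fold, Vegfa 5.01-fold, Pdk1 6.62-fold, Slc2a1 7.26-fold, Bnip3 7.57-fold, Car9 8.37-fold, Ankrd37 12.5-fold and Ndrg1 12.8-fold. Of 10 fibroblast markers 9 were tested, and Lum was at or near 0. Vim rose from 883 to 2249 FPKM, Col3a1, Col1a2, Pdgfrb, Thy1 and Dcn fell, by 1.80-fold for Col3a1 and 1.20-fold for Dcn, and Col1a1, S100a4 and Pdgfra were not called. The fibroblast markers summed to 2109 and 3268 FPKM under normoxia and hypoxia, but to 1226 and 1020 FPKM without Vim. Of 10 markers of other cell types, Ptprc, Pecam1, Adgre1, Pou5f1 and Cdh5 were below 0.1 FPKM in both conditions and were not tested. Of the 5 tested, 1 rose and 2 fell: the epithelial keratin gene Krt18 rose from 313 to 443 FPKM, its partner Krt8 fell from 28.3 to 10.1 FPKM and Cdh1 fell from 5.93 to 3.76 FPKM. Epcam, at 5.97 and 5.22 FPKM, and Sox2, at 2.18 and 2.38 FPKM, were not called. The 10 markers summed to 356 and 464 FPKM, and to 42.5 and 21.6 FPKM without Krt18. The part of these shifts in the host values was not tested.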

How the data were processed

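Per the labels' protocols, libraries were stranded and poly-A selected. The tools named are Cuffdiff 2.2.1, Cufflinks, StringTie 1.3.4d and HISAT2 2.1.0, on build GRCm38, per the submitters' processing notes. The authors deposited 1 gene table with 1 FPKM per gene and group, their log2 fold change, their p-value and q-value, and a test statistic (a score, not used here), per the file headers. The scaling between libraries and the strand setting are not given in those sources. Where several identifiers carry 1 and the same measurement, it was counted once.

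Calls are the authors' at q below 0.05, taken from their test over all 14575 tested measurements. Since the table holds group values only, no test was refitted. Folds are ratios of deposited FPKM, list counts use genes with a mean of at least 1 FPKM, and log2 ratios use a pseudocount of 1. Annotation and snoRNA sequences came from GENCODE M21, and start windows from RefSeq. Long noncoding genes were those of such a type in the table, without 17 measurements of genes that RefSeq has as protein coding. Copies were sought with BLAST 2.17.0. The counting steps were tested on simulated data.

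The members and gene lists were chosen with earlier results of these data known. All members were named, with their neighbours and the snoRNAs inside them. From the other lists all genes were named where no more than 12 had a row, and otherwise the 4 called genes with the largest change and up to 2 against the majority. A gene that the rule takes is not reported here and was left out of its list. Genes named beyond this rule were picked with their values known. The alternatives tried were a q of 0.01, a 2-fold threshold, single-name rows, a filter of 5 FPKM or none, a pseudocount of 0.1 and other scalings.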

Additional observations from a re-analysis of the deposited data

How the results depend on the processing

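Of the members, 6 rose and 1 fell, and these counts held with a filter of 5 FPKM. At a q of 0.01, 5 rose and 1 fell. With a change of at least 2-fold also required, 3 rose and 0 fell, and among rows with a single gene name 2 rose and 0 fell, since such rows are only those of Snhg6 and Snhg8. The median of the members and of each list moved by less than 0.1 with a pseudocount of 0.1 and with a median-of-ratios scaling. Scaling to equal summed FPKM shifted the median of all tested measurements with at least 1 FPKM from 0.0027 to -0.19. On that scale the members had a median of 0.34, the further noncoding hosts 0.026, protein-coding hosts 0.14 and TOP genes 0.23. Box C/D proteins then had -0.98, box H/ACA proteins -1.12, assembly genes -0.13, release genes -0.38 and decay genes -0.14. These shifts follow from the division itself. With single-name rows only, the median of the further noncoding hosts was 0.00098, as fewer genes entered. The scalings of the lists were added after the data were seen. No paired analysis was possible because the table holds 1 value per group and no values of single samples, and for the same reason no replicate could be left out in turn. Depth is unknown, which leaves no limit for values listed at 0.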

Other observations

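Protein-coding snoRNA hosts over the whole annotation, grouped by the same box rule after the values were seen, moved in both directions in either class. Among those with a mean of 1 FPKM or more, 34 had C/D snoRNAs only, of which 18 rose and 6 fell, 10 having no call (median log2 ratio 0.39). The 96 with H/ACA snoRNAs only included 43 that rose and 19 that fell, 34 having no call (median 0.17). Of 55 hosts that the box rule could not class, 22 rose and 17 fell, 16 having no call (median 0.04). Of 9 hosts with both classes, 6 rose, 2 fell and 1 had no call (median 0.35). Over all tested measurements, 28.9% were called higher and 29.0% lower. Since the rule misses part of the C/D snoRNAs, some hosts without a class may belong to the C/D group. The difference between the classes was not tested.

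Noncoding hosts whose snoRNAs the box rule could not class included the largest rise and the largest fall among noncoding hosts with a mean of at least 1 FPKM, on the scale of log2 (FPKM + 1). The host of Snord1a, Snord1b and Snord1c, 1810032O08Rik, rose from 11.9 to 33.7 FPKM (2.82-fold). On that scale AI506816 fell most, from 109.8 to 44.4 FPKM (2.47-fold lower, log2 ratio -1.29). The host of Snord93, 2700038G22Rik, fell from 4.19 to 1.16 FPKM (3.60-fold lower, log2 ratio -1.26).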
